A study of Mus musculus with 6 samples.

Results

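The variable segments of the immunoglobulin heavy chain (Ighv) and of the kappa light chain (Igkv) were followed in RNA of the mouse cochlea. Members were selected on symbol and total count, and kept where their counts summed to 20 or more over 6 libraries, which left 176 of 345 annotated rows, 93 of 185 Ighv and 83 of 160 Igkv, among 48709 mouse genes in all. The count total therefore chose the members and is given only as a description. Cochleae came from 3 knock-in mice (KI, Hgfdel10Neo/del10Neo) and 3 wild-type littermates (wt, Hgf+/+), killed between 5 and 27 weeks of age and pulverised frozen. Knock-in mice lack 10 bp of intron 5 on both copies of Hgf, with a Neo cassette named in the genotype, and model DFNB39, a recessive deafness. No source used here gives the age or litter of single animals.

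An antibody chain is encoded by separate V and J segments, with a D segment between them in heavy chains, that the recombinase of Rag1 and Rag2 joins in the DNA of developing B cells, and each B cell keeps 1 productive heavy chain and 1 productive light chain. Plasma cells, the antibody-secreting end stage, hold far more immunoglobulin RNA than B cells do. The RNA of a V segment in a bulk tissue therefore reflects which B and plasma cells were in the sample and how much they transcribed. Fewer such cells and less RNA per cell cannot be told apart in bulk libraries. Marrow of the surrounding bone and glandular tissue of the ear can be dissected with a cochlea.

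The libraries held between 24005234 and 42312291 mouse gene counts. Hgf was at 15.6 ± 0.572 CPM (counts per 1000000 mouse gene counts, scaled by TMM; SD, n = 3) in wild-type, against 10.07 ± 0.724 CPM (SD, n = 3) for the knock-in libraries (edgeR quasi-likelihood adjusted p = 0.246). Knock-in replicates 1, 2 and 3 held 71, 199 and 5 counts of the Neo cassette, and the wild types 5, 8 and 10. For Neo, the library labelled knock-in replicate 3 thus lay within the wild-type range, and the summed levels and the counts of lower and higher segments are given also without it. Its Hgf was at 10.5 CPM, beside 9.24 and 10.4 CPM in knock-in replicates 1 and 2 and 15.2 to 16.3 CPM in wild-type. Coch, the most abundant of the 8 cochlear markers, averaged 2614 ± 209 CPM in wild-type mice, against 2879 ± 255 CPM in their littermates (SD, n = 3 per group). Log2 fold changes were negative for 5 and positive for 3 of these markers (median -0.03), and none passed. Otos, with the smallest p of them, was lower in every knock-in library. It was at 151 ± 25.2 CPM in wild-type and 106 ± 10.0 CPM in knock-in (SD, n = 3 per group; log2 fold change -0.51, SE 0.133; edgeR quasi-likelihood adjusted p = 0.966). Xist was at 854 CPM in wild-type replicate 2 and 758 CPM in knock-in replicate 3, and under 1 CPM in the other 4.

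Germline sequences of the V exons, the part of each segment that encodes the antigen-contacting domain, show which members can be told apart by 93-base reads. They are annotated GENCODE M21 sequences on GRCm38, printed 5' to 3' on the coding strand for up to 300 bases from the start of the exon. Capitals mark bases that differ from the most similar annotated segment of the same locus. The first set holds Ighv1-15 (chr12:114657358-114657657, minus strand; compared with Ighv1-23) and Igkv14-111 (chr6:68256572-68256869, plus strand; compared with Igkv14-126), the members with the smallest p between the groups.
Ighv1-15: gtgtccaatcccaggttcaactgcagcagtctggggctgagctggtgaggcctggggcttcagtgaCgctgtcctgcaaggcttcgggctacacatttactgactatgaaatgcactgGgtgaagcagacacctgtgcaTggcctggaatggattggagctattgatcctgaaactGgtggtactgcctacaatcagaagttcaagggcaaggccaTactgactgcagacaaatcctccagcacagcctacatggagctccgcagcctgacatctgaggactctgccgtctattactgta
Igkv14-111: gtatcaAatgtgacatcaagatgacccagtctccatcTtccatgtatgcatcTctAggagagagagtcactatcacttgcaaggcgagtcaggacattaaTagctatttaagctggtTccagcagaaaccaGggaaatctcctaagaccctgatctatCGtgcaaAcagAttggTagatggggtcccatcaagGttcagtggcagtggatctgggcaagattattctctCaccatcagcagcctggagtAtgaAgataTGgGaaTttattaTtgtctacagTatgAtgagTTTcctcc

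The second set holds the members with the most counts in their locus, Ighv1-81 (chr12:115920284-115920583, minus strand; compared with Ighv1-85), Igkv1-110 (chr6:68270955-68271254, plus strand) and Igkv1-117 (chr6:68121515-68121814, plus strand). The kappa pair are each other's nearest segment.
Ighv1-81: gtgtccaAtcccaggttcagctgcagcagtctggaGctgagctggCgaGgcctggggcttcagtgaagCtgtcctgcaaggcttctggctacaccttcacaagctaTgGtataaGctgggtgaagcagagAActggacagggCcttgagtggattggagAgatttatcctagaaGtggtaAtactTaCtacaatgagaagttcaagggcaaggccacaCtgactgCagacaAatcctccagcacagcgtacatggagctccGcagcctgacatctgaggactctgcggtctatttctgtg
Igkv1-110: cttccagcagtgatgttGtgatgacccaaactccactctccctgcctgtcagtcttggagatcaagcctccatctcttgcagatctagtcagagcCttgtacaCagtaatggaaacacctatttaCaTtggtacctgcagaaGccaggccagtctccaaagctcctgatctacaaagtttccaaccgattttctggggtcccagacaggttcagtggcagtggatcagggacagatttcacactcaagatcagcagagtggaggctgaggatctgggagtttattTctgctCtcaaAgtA
Igkv1-117: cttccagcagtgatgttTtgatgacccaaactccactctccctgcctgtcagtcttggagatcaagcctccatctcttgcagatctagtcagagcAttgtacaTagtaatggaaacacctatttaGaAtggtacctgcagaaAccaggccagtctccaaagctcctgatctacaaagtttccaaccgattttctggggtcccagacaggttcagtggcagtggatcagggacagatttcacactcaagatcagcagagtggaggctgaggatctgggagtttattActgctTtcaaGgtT

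Over the whole exon, Ighv1-15 differed from Ighv1-23 at 5 bases and Igkv14-111 from Igkv14-126 by 25 substitutions and 2 gap bases. No stretch of 93 bases in the annotated transcript of either was found in a transcript of another gene. Igkv1-110 and Igkv1-117 differed at 10 bases, with an identical run of 142 bases, and 20.4% and 20.2% of their 93-base windows occurred in another gene. Reads within that run cannot be assigned by sequence, so the separate levels of this pair are uncertain. Over the 166 members with an annotated coding V exon, the median identity to the nearest segment was 95.1% for Ighv and 92.5% for Igkv. At least 97% identity was found for 19 Ighv and 5 Igkv members. Some 93-base windows were shared in 76 of 176 members and more than 50% of them in 3, Ighv1-62-2, Igkv6-20 and Igkv8-16, named here after their values were seen. A recombined and hypermutated V segment also differs from its germline sequence, and no source used here says how the counting treated such reads.

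The 10 segments with the most counts took between 34.6% and 45.9% of the Ighv counts of a library and between 39.0% and 52.5% of its Igkv counts. The 93 Ighv members held 27679 counts and the 83 Igkv members 34675, against 349 and 255 counts in the 169 rows that did not reach the minimum, a split that the selection fixes. Of the rows left out, 65 Ighv and 59 Igkv were annotated as pseudogenes, against 5 and 1 among the members. Just inside the threshold were Ighv1-67 with 20 counts, Ighv1-49 with 22 and Ighv7-4 with 23, and just outside were Ighv3-4 and Igkv8-18 with 18 each and Ighv8-2 with 17. Annotated exon lengths of the members lay between 329 and 480 bases, with a median of 359. Counts are compared between segments below as shares of a locus, not per length.

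Ighv1-81 was the most abundant heavy-chain segment over all libraries, with 487, 150 and 877 counts in wild-type and 388, 801 and 473 in knock-in replicates 1 to 3. It took between 3.24% and 18.7% of the Ighv counts of a library and led in 5 of 6 libraries. Wild-type replicate 2 was the exception, where Ighv1-26 led with 8.87%. In the kappa locus Igkv1-110 took between 5.61% and 19.0% and Igkv1-117 between 6.4% and 13.7%. One of this pair led in 5 of 6 libraries. In wild-type replicate 3, Igkv8-19 led with 14.7%, against 0.419% in wild-type replicate 1 and 0.449% in knock-in replicate 2.

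**Figure D1:**
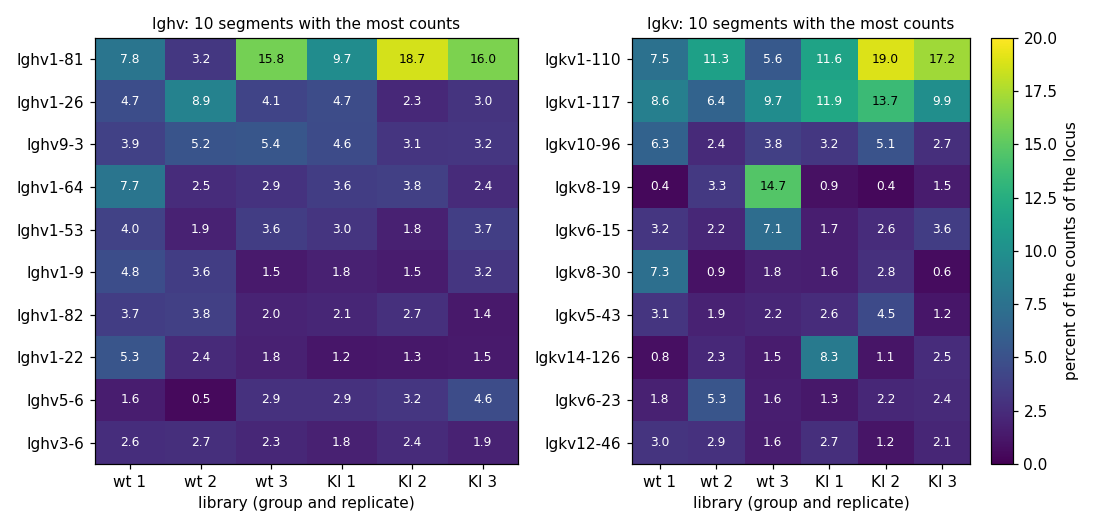
Percent of the Ighv counts (left) or Igkv counts (right) of each library, shown by colour and printed in each cell, for the 10 segments with the most counts in each locus, with the 3 wild-type and 3 knock-in libraries in columns. Ighv1-81, Igkv1-110 and Igkv1-117 were high in most libraries, while Igkv8-19, Igkv8-30 and Igkv14-126 were high in 1 library each.

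Some kappa segments were carried by a single library. More than 50% of the summed CPM over the 6 libraries came from 1 library for 14 of 83 Igkv members and 2 of 93 Ighv members. Wild-type replicate 1 was that library for 8 of these Igkv and both Ighv members, Ighv1-22 and Ighv1-66. Igkv8-30 had 629 counts in wild-type replicate 1 and between 22 and 136 in the other 5 libraries. Igkv8-19 had 1053 counts in wild-type replicate 3 and 22 to 182 elsewhere. Igkv4-70, which was chosen after its values were seen, had 290 counts in wild-type replicate 2 and 13 to 33 elsewhere. Igkv14-126, with 44.4% of its summed CPM in knock-in replicate 1, had 412 counts there and 54 to 128 elsewhere. For these segments the group means follow the one high library. Among members with at least 100 counts, the highest library exceeded the lowest by a median of 4.83-fold for 62 Ighv and 6.33-fold for 62 Igkv segments, and by more than 10-fold for 7 and 20 of them.

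The summed level of the variable segments was lower on average in knock-in, by less than the spread between wild-type mice. Summed Ighv RNA was at 252, 156 and 132 CPM in wild-type replicates 1 to 3 and at 121, 146 and 128 CPM in knock-in replicates 1 to 3. The groups overlapped. Summed Igkv RNA was at 346, 184 and 172 CPM in wild-type and 151, 167 and 153 CPM in knock-in. Here each knock-in library lay below each wild-type library. With CPM taken over all mouse gene counts and not scaled by TMM, the groups overlapped. Knock-in replicate 2 was then at 172 CPM and wild-type replicate 3 at 169.7 CPM (log2 difference -0.55, two-sided exact permutation p = 0.2). The mean log2 difference was -0.4 for Ighv (two-sided exact permutation p = 0.2) and -0.5 for Igkv (two-sided exact permutation p = 0.1, the smallest that 3 against 3 allow), 1.32-fold and 1.42-fold lower in knock-in.

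Wild-type replicate 1 set most of that difference. Without it the log2 difference was -0.13 for Ighv and -0.18 for Igkv (two-sided exact permutation p = 0.4 and 0.2, where 0.2 is the smallest that 2 against 3 allow). Without knock-in replicate 3, the library low in Neo, it was -0.39 and -0.48. The SD over knock-in libraries was 12.9 CPM for Ighv and 8.94 CPM for Igkv, against 63.6 and 97.1 CPM over wild-type libraries (n = 3 per group).

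**Figure D2:**
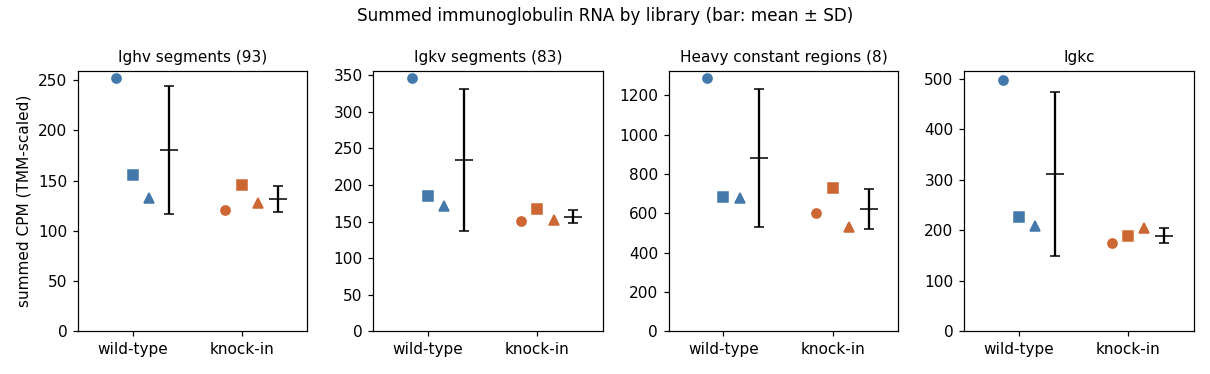
Summed CPM of the 93 Ighv segments, the 83 Igkv segments, the 8 heavy-chain constant region genes and Igkc, the kappa constant region gene, for each of 3 wild-type (blue) and 3 knock-in (orange) libraries, with group mean and SD in black; circles, squares and triangles are replicates 1, 2 and 3. Wild-type replicate 1 was the highest library in all 4 panels.

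Constant region genes encode the part of the antibody that sets its class. Their heavy-chain sum and Igkc were also highest in wild-type replicate 1. Not every single gene was, since Ighg1 was highest in wild-type replicate 2 and Iglc2, Iglc3 and Ighe in knock-in replicate 2. The 8 heavy-chain constant region genes summed to 1286, 684 and 677 CPM in wild-type and 603, 731 and 529 CPM in knock-in. Igkc was at 498, 226 and 209 CPM in wild-type and 175, 190 and 204 CPM in knock-in, a log2 fold change of -0.72 (SE 0.288; edgeR quasi-likelihood adjusted p = 0.966). Ighv counts per 100 heavy constant counts were 20.7 ± 1.84 in wild-type and 21.4 ± 2.42 in knock-in (SD, n = 3 per group), and Igkv counts per 100 Igkc counts were 77.7 ± 7.18 and 83.1 ± 7.16 (SD, n = 3 per group). The ratio of Igkv to Ighv counts was 1.28 ± 0.0938 in wild-type and 1.2 ± 0.0513 in knock-in (SD, n = 3 per group; two-sided exact permutation p = 0.3).

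The shares of Ighm and Igha overlapped between the groups. Ighm, the class of naive B cells and first responses, took 43.8%, 49.7% and 52.4% of heavy constant counts in wild-type and 54.0%, 54.2% and 33.1% in knock-in. Igha, the class secreted at mucosal and glandular surfaces, took 32.8%, 34.0% and 24.0% in wild-type and 22.7%, 23.2% and 42.3% in knock-in. Knock-in replicate 3 had the lowest Ighm and the highest Igha share of the 6. Ighg3, an IgG subclass gene, had 1473, 223 and 94 counts in wild-type and 6, 46 and 41 in knock-in. All knock-in libraries were lower, with a log2 fold change of -4.33 (SE 1.16; edgeR quasi-likelihood adjusted p = 0.966). Ighg2b had 2671, 1609 and 3312 counts in wild-type and 2931, 2498 and 1735 in knock-in, and Ighg1 had between 43 counts in wild-type replicate 3 and 548 in wild-type replicate 2. Log2 fold changes were negative for 9 of 11 constant region genes tested (median -0.4), and none passed.

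No segment passed the threshold between the groups. The edgeR quasi-likelihood test over 20733 genes called 0 of the 139 members that passed the filter on low counts, where it called 0.0241% of all genes tested lower and 0.00965% higher in knock-in. At an unadjusted p under 0.05, 36 of these 139 segments were lower and 1 was higher, beside 1.96% lower and 2.54% higher over all genes tested. Log2 fold changes were negative for 98 of the 139 and positive for 41 (median -0.56), where 49.8% of all genes tested were negative and 50.2% positive. The filter can admit a segment through the group in which it is high, so these counts describe and do not support. The 37 members that did not pass it had at most 90 counts each.

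Counted over all 176 members with no test, 119 had a lower mean CPM in knock-in (67.6%), where 49.2% of the 24477 rows with 20 or more counts did. Of the 139 tested, 14 had every knock-in library below every wild-type library and 0 had the reverse, beside 4.01% and 4.71% of all genes tested. Over all 176, members with every knock-in library below every wild-type library numbered 15 (8.52%), beside 3.93% of those rows, and 2 members, Ighv2-6-8 and Igkv4-81, had the reverse, beside 4.98%. Without wild-type replicate 1, 94 of 176 had a lower mean in knock-in (53.4%), beside 47.1% of those rows, and the median log2 ratio of means went from -0.49 to -0.09. In that fit 24 of 144 tested segments were lower and 10 higher at an unadjusted p under 0.05, beside 473 lower (2.24%) and 374 higher of 21147 genes. Without knock-in replicate 3, 119 of 176 had a lower mean. At an unadjusted p under 0.05, 36 of 150 tested segments were then lower and 7 higher, against 1 higher with that library, beside 405 lower (1.92%) and 415 higher of 21131 genes.

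**Figure D3:**
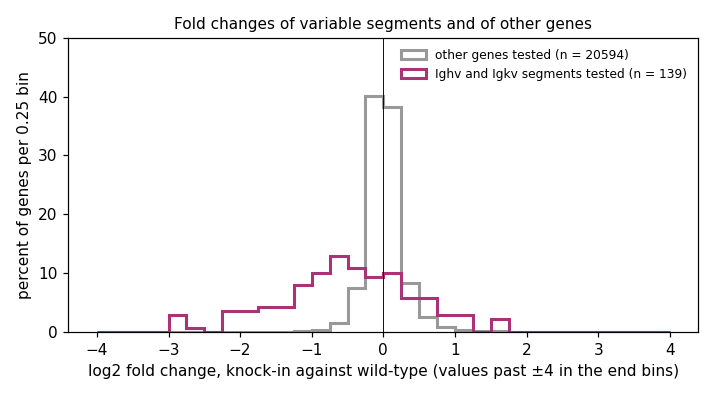
Distribution of log2 fold changes, knock-in against wild-type, for the 139 Ighv and Igkv segments tested (purple) and the other genes tested (grey), as percent of each set per bin. The median of the segments is -0.56, and most of the other genes lie in the bins next to 0.

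Among the members that came closest, Ighv1-15 (ENSMUSG00000103254), of the large Ighv1 family, had 72, 70 and 69 counts in wild-type and 19, 20 and 17 in knock-in. That was 2.3 ± 0.625 and 0.664 ± 0.0832 CPM (SD, n = 3 per group), and the groups were apart. Its log2 fold change was -1.78 (SE 0.281; edgeR quasi-likelihood adjusted p = 0.145). Igkv14-111 (ENSMUSG00000095771) had 223, 214 and 134 counts in wild-type and 51, 38 and 33 in knock-in, or 6.46 ± 2.95 and 1.42 ± 0.122 CPM (SD, n = 3 per group). All 3 knock-in libraries were below 1.6 CPM and all 3 wild-type libraries at or above 3.2 CPM. Its log2 fold change was -2.16 (SE 0.354; edgeR quasi-likelihood adjusted p = 0.176). It passed without wild-type replicate 3 (edgeR quasi-likelihood adjusted p = 0.0177), and its adjusted p over the other fits of all genes was between 4.87e-07 (DESeq2) and 0.976. For Ighv1-15 that range was 0.00145 (DESeq2) to 0.545.

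Ighv9-3, a member of the Ighv9 family, had 244, 241 and 297 counts in wild-type and 183, 132 and 94 in knock-in, or 8.34 ± 1.37 and 4.7 ± 0.744 CPM (SD, n = 3 per group), with the groups apart (log2 fold change -0.82, SE 0.178). Ighv9-4 of the same family had 18, 18 and 35 counts in wild-type and 2, 7 and 6 in knock-in (log2 fold change -2.01, SE 0.44). Ighv1-50 had 123, 170 and 43 counts in wild-type and 15, 25 and 8 in knock-in (log2 fold change -2.77, SE 0.617). The wild-type libraries of this segment ranged more than 5-fold, from 1.03 to 5.72 CPM. Ighv10-3 had 56, 91 and 53 counts in wild-type and 19, 30 and 12 in knock-in (log2 fold change -1.6, SE 0.385). None of these passed (edgeR quasi-likelihood adjusted p = 0.813 for Ighv9-3 and Ighv9-4, 0.868 for Ighv1-50 and 0.966 for Ighv10-3).

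Fewer segments were higher in knock-in, and several of them were high in a single library. Ighv1-69, the only tested member higher at an unadjusted p under 0.05, had 62, 29 and 43 counts in wild-type and 156, 41 and 71 in knock-in (log2 fold change 1.07, SE 0.47; edgeR quasi-likelihood adjusted p = 0.966). Ighv1-18, Ighv4-1, Ighv14-3, Igkv2-109 and Igkv3-5 had log2 fold changes of 0.82, 0.98, 1.02, 1.62 and 1.53. Without knock-in replicate 1 these were 0.29 for Ighv1-18, 0.10 for Ighv4-1, 0.05 for Ighv14-3 and -0.19 for Igkv2-109. Igkv3-5 was at 0.59 without knock-in replicate 2.

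**Figure D4:**
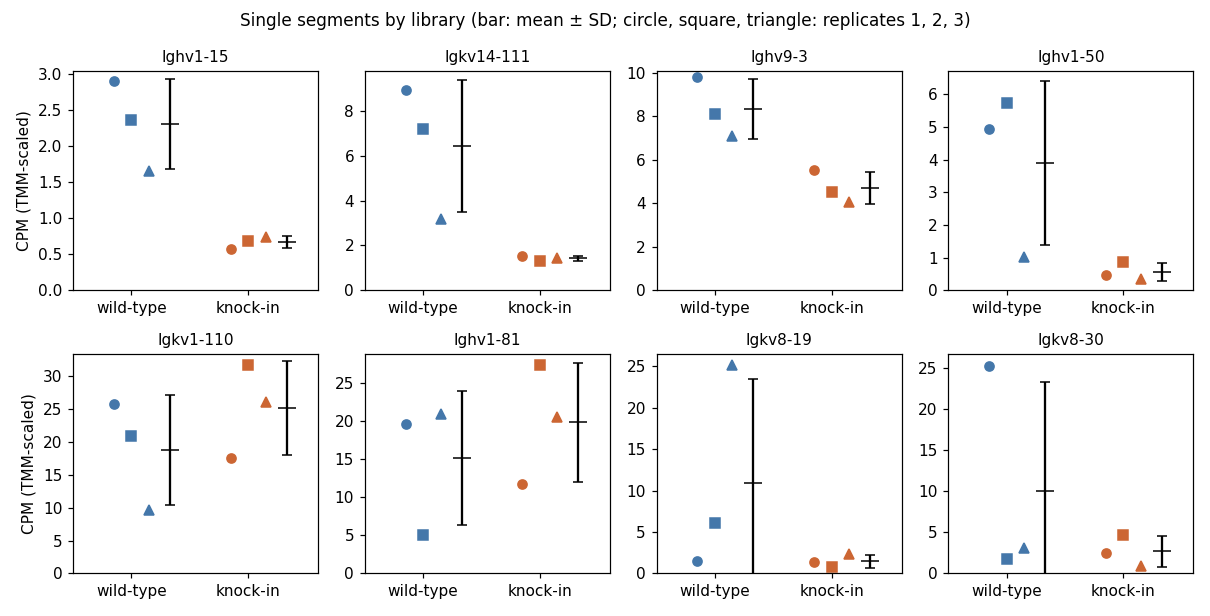
CPM of 8 segments in each of the 3 wild-type (blue) and 3 knock-in (orange) libraries, with group mean and SD in black; circles, squares and triangles are replicates 1, 2 and 3. Ighv1-15, Igkv14-111, Ighv9-3 and Ighv1-50 did not overlap between groups, Igkv1-110 and Ighv1-81 did, and Igkv8-19 and Igkv8-30 each had 1 high wild-type library, so their SD bars reach 0.

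Other fits of the same counts called some segments, all of them lower in knock-in. DESeq2 called 5 of 176, Ighv1-15, Ighv1-26, Ighv1-50, Ighv9-3 and Igkv14-111, where it called 0.0678% of all genes lower and 0.0479% higher. The edgeR test with no filter on low counts called 13, where it called 0.0879% of all genes lower and 0.135% higher. Igkv14-111 had the smallest adjusted p among them (9.71e-05). The authors' deposited table, also from DESeq2, lists 6 of the 119 members with an adjusted p as lower at 0.05, beside 0.102% lower and 0.0749% higher of all genes in it. These are Igkv14-111 (log2 fold change -2.18, adjusted p = 1.25e-07 in the authors' deposited table), Ighv1-15, Ighv1-26, Ighv9-3, Igkv6-14 and Ighv10-3. Why these fits called different segments, and which is closer to the truth, was not tested.

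The share of the kappa locus taken by the Igkv1 family differed between groups without overlap. Its 7 members took 19.2%, 20.9% and 19.8% of Igkv counts in wild-type and 26.7%, 36.2% and 30.1% in knock-in. This family was singled out after the shares were seen. Of 17 kappa families, Igkv1 was higher in every knock-in library and Igkv8 and Igkv9 were lower, and of 15 Ighv families none was apart. By CPM rather than share, every knock-in library was lower for 3.93% and higher for 4.98% of the rows with 20 or more counts. Shares within a locus are not independent, since a higher share of one family lowers those of others. In CPM the Igkv1 family was at 66.3, 38.6 and 33.9 in wild-type and 40.3, 60.4 and 45.9 in knock-in, which overlap. The other 76 kappa members summed to 279, 146 and 138 CPM in wild-type and 110.4, 106.6 and 106.7 CPM in knock-in. The sum of the other segments thus lay apart between the groups, and that of the Igkv1 family did not. No test was made of either. Igkv1-110 had a log2 fold change of 0.43 (SE 0.326) and Igkv1-117 of -0.06 (SE 0.294), and neither passed (edgeR quasi-likelihood adjusted p = 0.966 and 0.994).

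Shares of the heavy-chain families overlapped between the groups. The Ighv1 family, with 48 members the largest, took 61.3 ± 2.73% of Ighv counts in wild-type and 60.7 ± 1.07% in knock-in (SD, n = 3 per group). Ighv5 took 7.94 ± 1.57% and 9.23 ± 1.57%, and Ighv9 5.5 ± 1.02% and 4.25 ± 0.694% (SD, n = 3 per group). Kappa family Igkv4, with 23 members, took 15.1 ± 5.06% and 11.6 ± 4.04%, and Igkv8 14.6 ± 5.78% and 7.3 ± 0.824% (SD, n = 3 per group). The Igkv8 share in wild-type was 21.1% in replicate 3, where Igkv8-19 was high, and 10.07% in replicate 2.

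Each locus was cut into 3 equal stretches by distance from its J segments. Between libraries, the shares of the nearest and farthest stretches ranged less widely for Ighv than for Igkv. The Ighv share of the middle stretch ranged from 28.5% in knock-in replicate 2 to 38.4% in wild-type replicate 2. That of Igkv ranged from 18.6% in wild-type replicate 3 to 27.5% in wild-type replicate 2. These shares were not tested. Ighv segments lie within 2580 kb of the Ighj segments on chromosome 12 and Igkv segments within 3167 kb of the Igkj segments on chromosome 6. Members more than 1720 kb from Ighj took 39.8 ± 4.16% of Ighv counts in wild-type and 42.2 ± 1.28% in knock-in (SD, n = 3 per group). Members more than 2111 kb from Igkj took 34.6%, 34.6% and 29.9% of Igkv counts in wild-type and 49.8%, 47.2% and 42.2% in knock-in. Without the Igkv1 family, which holds 6 of the 22 members in that stretch, the shares were 21.2%, 19.0% and 13.3% in wild-type and 32.3%, 18.6% and 18.0% in knock-in. These overlap.

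**Figure D5:**
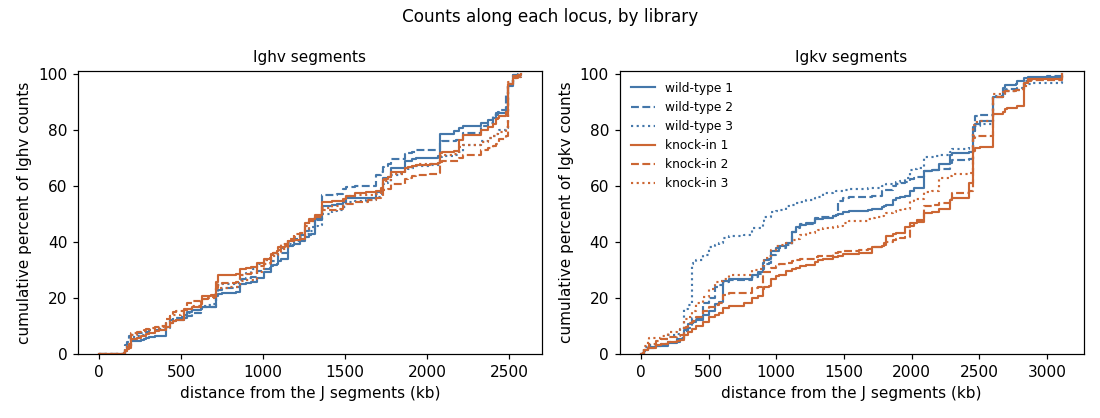
Cumulative percent of Ighv (left) and Igkv (right) counts with distance from the J segments in kb, one line for each wild-type (blue) and knock-in (orange) library. The Ighv lines lie closer together than the Igkv lines where the nearest and the middle stretch of each locus end. In the Igkv panel the steps at 2452 and 2601 kb, at Igkv1-110 and Igkv1-117, are large in all libraries.

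Diversity within a locus was summarised by the effective number of segments, the number of equally abundant segments that would give the same chance that a pair of counts shares a segment. It was 31.3, 33.6 and 24.6 for Ighv in wild-type and 33.8, 20.6 and 23.4 in knock-in, which overlap (two-sided exact permutation p = 0.5). For Igkv it was 28.5, 27.4 and 20.3 in wild-type and 21.3, 14.8 and 18.9 in knock-in. These overlap too, through wild-type replicate 3 and knock-in replicate 1 (two-sided exact permutation p = 0.2). Nearly all members were detected in each library, which the selection on counts summed over these same libraries favours. The rows that did not reach the minimum are not counted here. At a common depth of 2949 Ighv counts between 89.6 and 92.8 of 93 segments would be seen, and at 3520 Igkv counts between 80.0 and 82.4 of 83.

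Libraries were also compared in pairs by their segment shares. The summed minimum of the shares of a pair of libraries was 66.7% to 71.9% for the 3 wild-type pairs, 71.8% to 75.5% for the 3 knock-in pairs and 61.9% to 78.6% for the 9 mixed pairs in Ighv. In Igkv it was 60.6% to 70.1%, 65.9% to 72.0% and 60.6% to 66.7%. There 2 of the 3 knock-in pairs lay above all 9 mixed pairs, as did the pair of wild-type replicates 1 and 2 (70.1%). Pairs that share a library are not independent, and the differences between these ranges were not tested.

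Genes of the B lineage were measured beside the segments. The defining B cell gene Ms4a1 (CD20) averaged 44.8 ± 17.0 CPM over the wild-type libraries, against 43.4 ± 21.4 CPM over the knock-in libraries (SD, n = 3 per group). The 16 mature B cell genes summed to 678, 354 and 570 CPM in wild-type and 534, 604 and 300.1 CPM in knock-in. Wild-type replicate 2 and knock-in replicate 3 were the lowest, and these are the libraries with abundant Xist. Summed V segment RNA was lowest in knock-in replicate 1, at 121 CPM for Ighv and 151 CPM for Igkv. Knock-in replicate 3 came next, at 128 and 153 CPM, and wild-type replicate 2 was higher, at 156 and 184 CPM. None of the 16 passed. Log2 fold changes were negative for 15, and their median was -0.16.

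Genes of V(D)J recombination, which developing B cells use, were detected in all libraries. Rag1, a recombinase subunit, averaged 63.4 ± 28.2 against 46.0 ± 20.6 CPM, and Dntt, which adds bases at the joints, 12.8 ± 7.44 against 13.3 ± 3.82 CPM (wild-type first; SD, n = 3 per group). Vpreb1 and Igll1, the surrogate light chain of precursors, averaged 3.79 ± 2.32 against 3.02 ± 0.718 CPM and 7.97 ± 4.36 against 6.9 ± 2.29 CPM (wild-type first; SD, n = 3 per group). Log2 fold changes were negative for 9 of 10 precursor genes and 8 of 14 recombination and diversification genes (medians -0.23 and -0.02), and none passed.

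Plasma cell genes were measured as well. Jchain, which links IgA and IgM multimers, averaged 107.8 ± 32.9 against 81.6 ± 15.6 CPM, Mzb1, an antibody-folding cofactor, 8.63 ± 3.82 against 6.34 ± 1.97 CPM, and Sdc1 (CD138) 23.5 ± 4.12 against 21.5 ± 2.95 CPM (wild-type first; SD, n = 3 per group). Log2 fold changes were negative for 9 of 14 tested plasma cell genes (median -0.09), and none passed. Several of these, such as Xbp1, Txndc5 and Sec11c, are also transcribed in other secretory cells. The summed list was at 708, 536 and 575 CPM in wild-type and 547, 625 and 603 CPM in knock-in, with wild-type replicate 1 again the highest.

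Markers of other cell types were measured too. Neutrophil genes summed to between 9222 and 12976 CPM and erythroid genes to between 8691 and 13260 CPM, with overlapping groups. Both lists were lowest in wild-type replicate 2. The 10 T cell genes summed to between 22.1 and 38.0 CPM. Their log2 fold changes were negative for 1 and positive for 9 (median 0.17), and none passed. The 8 gland genes summed to 165, 8.08 and 89.5 CPM in wild-type and 18.2, 152 and 157 CPM in knock-in. Different single genes made up most of the high sums. Bpifb1 was at 156 CPM in wild-type replicate 1 and 93.7 CPM in knock-in replicate 2. Muc5b was at 83.8 CPM in wild-type replicate 3 and Bpifa2 at 122 CPM in knock-in replicate 3. Log2 fold changes were negative for 3 and positive for 3 of the 6 gland genes tested. Car6, a secreted carbonic anhydrase, was the one that passed, as higher in knock-in (edgeR quasi-likelihood adjusted p = 0.0205), with 2, 1 and 0 counts in wild-type and 107, 74 and 178 in knock-in. Bpifa2, a salivary protein gene, had 14, 15 and 17 counts in wild-type and 249, 1356 and 2811 in knock-in, and Pip had 0 in each wild-type library and 36, 44 and 69 in knock-in (edgeR quasi-likelihood adjusted p = 0.102 and 0.0647). Muc5b, a mucin gene, had 3508 counts in wild-type replicate 3 and 84 to 170 elsewhere (log2 fold change -2.74; edgeR quasi-likelihood adjusted p = 0.966). Pigr, the receptor that carries IgA across epithelia, was at 1.17 ± 0.661 and 1.15 ± 0.46 CPM (SD, n = 3 per group). The part of these cell types in the segment levels was not tested.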

How the data were processed

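RNA-seq was read from total RNA of 3 wild-type and 3 knock-in cochleae after ribosomal depletion and random priming, per the labels' protocols. Reads were mapped with STAR 2.5.2 to GRCm38 and compared with DESeq2, per the submitters' processing notes. No source used here names the program that counted them or says whether it used strand. The authors deposited whole-number counts per gene, and a DESeq2 table with log2 fold changes and their SE, a mean signal per gene (scaled by size factor), a test score and p-values. Their regularized log table was not used. Symbols came from GENCODE M21 for 48349 of 48709 mouse genes. The 24 spike-in and transgene rows (0.00151% to 0.0045% of counts) stayed out of totals and tests.

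Counts were tested with edgeR 4.0.16 (filterByExpr, TMM, glmQLFit and glmQLFTest, R 4.3.3), adjusted by Benjamini-Hochberg over all 20733 genes tested, at 0.05; the SE was taken as the size of the log2 fold change over the root of its F statistic. Summed levels, ratios and effective numbers (inverse Simpson index, unbiased for depth) were tested by exact permutation (scipy 1.17.1). V exon identity came from global alignment. The scripts were tested on simulated data. Replicate numbers follow accession order, and p-values measure the spread between mice. The 15 library pairs differed by a chi-square of 21 to 49 per degree of freedom, so none is a repeat. The members and gene lists were chosen with earlier results of these data known. Named were the 10 segments with the most counts per locus, 6 per direction with the smallest p, and any with 10% of a library, with others identified. Other settings were leaving the low-count filter out, asking for 1 CPM in 3 libraries, upper-quartile or RLE scaling, limma-voom (limma 3.58.1), DESeq2 1.42.0, count minimums of 10 and 50, no pseudogenes, unscaled totals and leaving out each library.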

Additional observations from a re-analysis of the deposited data

How the results depend on the processing

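All 50 refits of the summed levels, the kappa to heavy ratio and the effective numbers kept their direction. Leaving out 1 library gave log2 differences of -0.60 to -0.13 for summed Ighv, -0.69 to -0.18 for summed Igkv and -0.16 to -0.05 for the ratio, and differences of -7.8 to -1.21 and -9.62 to -5.32 in the effective number of Ighv and Igkv segments. The fits without the 10 most abundant segments, and without wild-type replicate 1 and knock-in replicate 3 together, were chosen after seeing the data. Segments called lower were 13 with no filter and 5 with DESeq2, and 0 to 3 when 1 library was left out. These were Igkv6-14 without wild-type replicate 1 and Ighv1-50, Igkv14-111 and Igkv4-55 without wild-type replicate 3. Genes called lower over the whole table were 5, with 30 with no filter, 17 with DESeq2 and 2 to 8 when 1 library was left out, and genes called higher were 2, with 46, 12 and 0 to 13. The causes of these differences were not tested. Of 370 values of 31 named segments under other settings, 345 kept their direction and side of the threshold, 15 came to pass it and 10 turned direction. Leaving out 1 library gave log2 fold changes of -0.033 to 0.69 for Ighv1-81 (lowest without wild-type replicate 2), -1.41 to 0.17 for Ighv1-64, -0.31 to 0.38 for Igkv1-117, -1.26 to 0.10 for Igkv10-96, -2.48 to 0.17 for Igkv8-30 and -1.01 to 0.30 for Igkv5-43 (all 5 highest without wild-type replicate 1), and -0.21 to 1.33 for Igkv14-126 and -0.19 to 2.11 for Igkv2-109 (both lowest without knock-in replicate 1). Igkv1-117 also turned, to 0.055 with limma-voom. No paired analysis was possible because no source used here gives the litter of single animals, and the replicate numbers only follow accession order. The median member had 232 counts over 6 libraries, so single segments carry a large counting error.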

Other observations

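Lambda light chains, which were not among the segments chosen, were present in every library. The 3 Iglv rows summed to 36.0, 33.1 and 23.8 CPM in wild-type and 23.0, 35.8 and 25.9 CPM in knock-in, and Iglc1 to Iglc3, the lambda constant region genes, to 51.6, 41.9 and 34.0 CPM and 29.8, 50.8 and 35.2 CPM. Both sets overlapped between the groups. The 4 Ighj rows summed to 4.42, 2.09 and 3.15 CPM in wild-type and 3.2, 2.93 and 1.69 CPM in knock-in, and the 5 Igkj rows to 6.87, 3.47 and 7.14 CPM and 5.77, 6.38 and 1.99 CPM. Knock-in replicate 3 was the lowest library for both J sets, as it was for the mature B cell list.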
